A study of Mus musculus with 4 samples.

Results

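Collagens, laminins and integrins were taken as all protein-coding mouse genes of GENCODE release M21 whose symbol starts with Col (a number, the letter a and a chain number), with Lama, Lamb or Lamc and a number, or with Itga or Itgb. The rule took 87 of 21951 protein-coding genes. Of these, 44 encode collagen chains, 11 laminin chains, 18 integrin alpha chains and 9 integrin beta chains. The other 5 match by symbol alone (Col4a3bp, Itgb1bp1, Itgb1bp2, Itgb3bp and Itgbl1). They encode no collagen, laminin or integrin chain and are kept apart below. Binding of V5-tagged Foxr2 near these genes was mapped by CUT&RUN, in which an antibody holds a nuclease at a tagged protein and the DNA cut free around it is sequenced. Foxr2 p53LOF replicates (n = 2) came from a neurosphere line grown from a C57BL/6J mouse brain tumor. That tumor was made by in utero electroporation (IUE) of a Foxr2 vector with the V5 tag, driven by the CAG promoter, together with CRISPR/Cas9 vectors against Trp53. V5 control replicates (n = 2) came from a separate C57BL/6J IUE model, genotype H3.3G34R, whose vectors lack the V5 tag, so they control for the antibody and not for Foxr2 or p53. All samples held 500000 cells fixed for 1 minute in 0.1% formaldehyde. The Foxr2 p53LOF replicates belong to 1 line, and whether the control replicates share a line is not stated, so the spread between replicates may be technical, and tumor-to-tumor variation was not measured.

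Most collagens are secreted as triple helices, many of which form fibrils, networks or microfibrils, and some are transmembrane proteins. Laminins are cross-shaped trimers of an alpha, a beta and a gamma chain that build basement membranes. Integrins are cell-surface dimers of an alpha and a beta chain that bind collagens, laminins and other matrix proteins and connect them to the cytoskeleton. In the developing brain, laminins and their integrin receptors line the ventricular and pial surfaces and the vessels, and fibrillar collagens belong mainly to the meninges and vessel walls.

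A fold is the enrichment of fragments at a peak's summit over the background of its own library, as deposited. Reproducible sites are stretches under peaks of both Foxr2 p53LOF replicates, after peaks shared with a control, and peaks with a fold of 6 or less, a −log10 q of 6 or less or a length of 10000 bp or more, were removed. A promoter site reaches to within 1 kb of a coding transcript's start, and the gene region is the gene body with 10 kb on either side. Positions are in GRCm38 (mm10). The 5 windows of 300 bases below, read from the reference genome on the plus strand, carry the main results. Those of Itgb8 and Lamc1 come from the strongest promoter sites at an outermost gene start and are centered on the mean of the 2 summits, which the Lamc1 window holds. The Itgb8 summits lie 391 bp apart, and its window falls between them. Those of Itgb1 and Col11a1 hold the core of the ETS binding sequence, TTCCGG, in capitals. The Itgb1 window is centered on the mean of the summits and the Col11a1 window on the site, and neither window holds a summit. That of Itga2 lies around the summits of the strongest site of all 87 genes, inside the gene.
Itgb8, chr12:119238709-119239008 (+): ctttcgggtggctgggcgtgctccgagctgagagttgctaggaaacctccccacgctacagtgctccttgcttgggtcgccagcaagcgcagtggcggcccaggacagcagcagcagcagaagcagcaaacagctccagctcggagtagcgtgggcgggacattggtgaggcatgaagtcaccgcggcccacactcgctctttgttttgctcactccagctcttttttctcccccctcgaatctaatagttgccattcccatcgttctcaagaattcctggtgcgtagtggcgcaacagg
Lamc1, chr1:153332495-153332794 (+): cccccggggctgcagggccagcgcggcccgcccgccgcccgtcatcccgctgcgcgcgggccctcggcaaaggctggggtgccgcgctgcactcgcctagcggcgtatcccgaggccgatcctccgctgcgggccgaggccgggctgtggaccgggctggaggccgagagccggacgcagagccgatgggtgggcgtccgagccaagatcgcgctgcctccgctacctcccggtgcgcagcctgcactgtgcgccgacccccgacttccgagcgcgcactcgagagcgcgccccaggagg
Itgb1, chr8:128685470-128685769 (+): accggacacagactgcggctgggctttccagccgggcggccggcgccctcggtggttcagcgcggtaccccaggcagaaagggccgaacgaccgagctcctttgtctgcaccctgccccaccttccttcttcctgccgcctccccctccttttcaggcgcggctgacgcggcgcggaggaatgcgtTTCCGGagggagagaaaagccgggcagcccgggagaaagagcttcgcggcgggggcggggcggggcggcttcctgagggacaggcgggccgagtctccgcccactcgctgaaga
Col11a1, chr3:114030672-114030971 (+): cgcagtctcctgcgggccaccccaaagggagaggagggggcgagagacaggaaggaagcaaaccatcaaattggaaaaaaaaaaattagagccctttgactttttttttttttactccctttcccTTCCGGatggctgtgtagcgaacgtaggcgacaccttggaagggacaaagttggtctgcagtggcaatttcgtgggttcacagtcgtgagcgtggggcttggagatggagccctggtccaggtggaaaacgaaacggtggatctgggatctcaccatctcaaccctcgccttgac
Itga2, chr13:114838969-114839268 (+): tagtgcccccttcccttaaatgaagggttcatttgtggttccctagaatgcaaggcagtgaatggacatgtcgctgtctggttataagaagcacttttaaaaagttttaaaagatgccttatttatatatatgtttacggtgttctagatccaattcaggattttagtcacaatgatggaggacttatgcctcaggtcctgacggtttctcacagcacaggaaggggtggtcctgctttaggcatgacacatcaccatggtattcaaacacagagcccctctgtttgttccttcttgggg

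Foxr2 p53LOF replicate 1 had at least 1 deposited peak in the region of 67 of the 87 genes, replicate 2 in 67, control replicate 1 in 0 and control replicate 2 in 0. Over all protein-coding genes, the same count gave 66.1%, 66.9%, 0.524% and 0.26%. The groups did not overlap, and the exact two-sided permutation test over the 4 libraries gave p = 0.333, the smallest that 2 libraries against 2 can reach. Both replicates had a peak at 63 genes (72.4%) and neither at 16 (18.4%), beside 63.7% and 30.7% of all protein-coding genes. The 87 regions span 11.3 Mb and held 183 peaks in replicate 1 (16.2 per Mb) and 219 in replicate 2 (19.4 per Mb), beside 19.7 and 23.8 per Mb over the regions of all protein-coding genes. The Foxr2 p53LOF lists held 31909 and 38580 peaks in all and the control lists 308 and 124. The background at peaks, recovered from the deposited folds, was 1.26 and 2.04 fragments in the Foxr2 p53LOF libraries and 1.69 and 0.643 in the controls. Control replicate 2 thus had the lowest background of the 4. If it was also the shallowest, its empty regions carry the least weight, but read totals are not known.

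A reproducible site lay in the region of 37 of the 87 genes (42.5%), beside 50.0% of all protein-coding genes. The direction of this difference, against shares not set to gene length, depends on the settings. With no minimum on fold or q, 57 of 87 (65.5%) had a site, beside 62.3% of all, and with 50 kb on either side 60 (69.0%), beside 64.7%. The 87 genes are long, with a median of 82520 bp beside 17403 bp over all genes, and the share with a site over all genes rose from 26% in the shortest of 10 length classes to 61.9% in the ninth and was 56.8% in the longest. Set to the gene lengths of the 87, the share over all genes was 57.5% with the filters and region above. Shares at other settings were not set to length, so the turn in direction was not checked for genes of equal length. Promoter sites were found at 14 genes (16.1%), beside 39.2% of all. Many Foxr2 sites lie at promoters rich in CpG, and set to the CpG classes of the 87 promoters the share over all genes was 34%. Without the 5 genes that match by symbol alone, 34 of 82 genes (41.5%) had a site in the region and 11 (13.4%) a promoter site. These shares are descriptions, with no test, since the genes were chosen with earlier results of these data known.

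**Figure D1:**
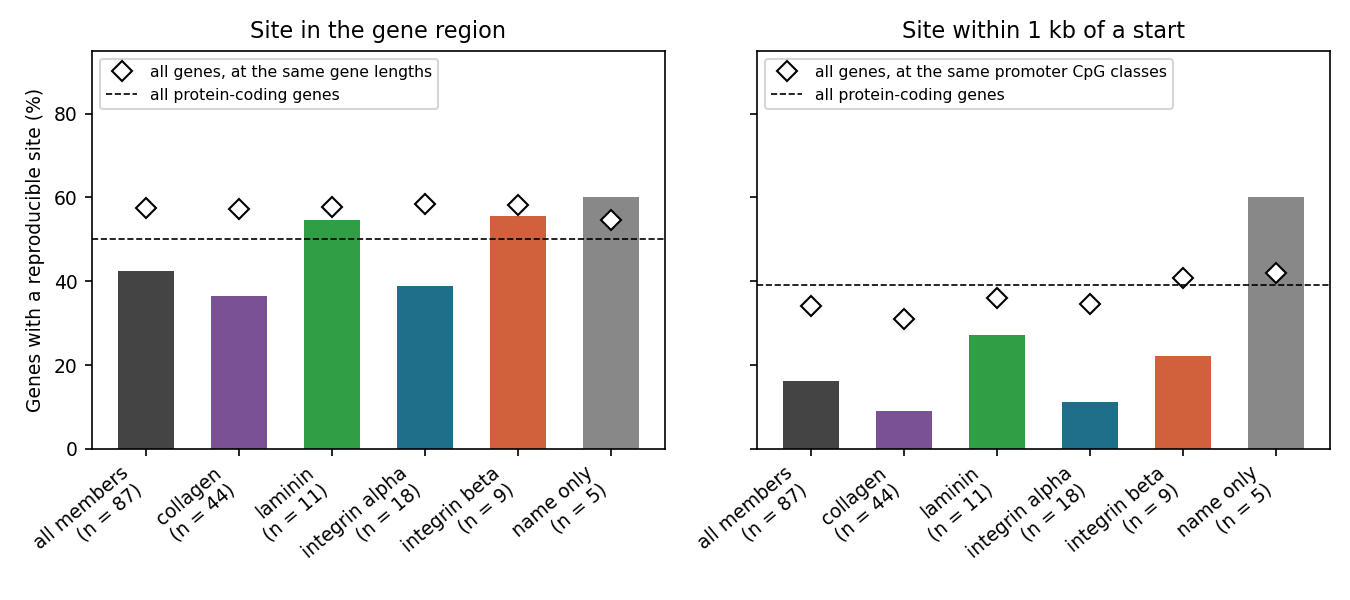
Bars give the percentage of genes in each family with a reproducible Foxr2 site in the gene region (left) or within 1 kb of a start (right). Diamonds give the share over all protein-coding genes at the same gene lengths (left) or promoter CpG classes (right), and the dashed line the share over all protein-coding genes. Collagens sit lowest in both panels, at 36.4% and 9.09%, with diamonds at 57.3% and 31.0%. The bar of the 5 genes that match by symbol alone stands highest, at 60.0% in both, with diamonds at 54.6% and 42.1%.

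Among collagens, 16 of 44 had a site in the region (36.4%, beside 57.3% of all genes at the same lengths) and 4 a promoter site (9.09%, beside 31.0% at the same CpG classes). Integrin alpha chains had 7 of 18 (38.9%, beside 58.4%) and 2 (11.1%, beside 34.5%). Laminins had 6 of 11 (54.5%, beside 57.7%) and 3 (27.3%, beside 36.0%), and integrin beta chains 5 of 9 (55.6%, beside 58.3%) and 2 (22.2%, beside 40.8%). The region shares of laminins and of integrin beta chains were thus near those of all genes of their length. Of the 5 genes matching by symbol alone, 3 had both (60.0%), beside 54.6% of all genes at the same lengths and 42.1% at the same CpG classes. Sites per Mb of region were 3.56 for collagens, 5.33 for laminins, 6.63 for integrin alpha chains and 11.1 for integrin beta chains, beside 8.14 over all protein-coding genes.

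Collagen promoters with a site were those of Col2a1, Col11a1, Col11a2 and Col16a1. The first 3 are among 11 fibrillar chains (27.3%), beside an expected 28.5% at their CpG classes. Col2a1 encodes the main collagen of cartilage, also made in the early neural tube, and Col11a1 and Col11a2 encode chains of type XI collagen, which is built into the same fibrils. The Col2a1 site (chr15:98001409-98004100) had folds of 8.84 (95% interval 5.50 to 13.6) in replicate 1 and 10.8 (7.52 to 15.2) in replicate 2. Its replicate 1 summit lay in an intron, 2039 bp downstream of the start, and only its edge came within 1 kb. Folds at the Col11a1 promoter (chr3:114029800-114031844) were 7.95 (4.82 to 12.5) and 9.53 (6.44 to 13.6). The Col11a2 promoter site (chr17:34038669-34039302) had 8.39 (5.15 to 13) and 7.88 (5.12 to 11.7). All 3 were alike within their intervals, which cover counting error only. The fourth collagen promoter was that of Col16a1, a fibril-associated collagen, with folds of 15.5 (10.8 to 21.4) and 16.8 (12.5 to 22.0). That site (chr4:130053536-130056565) lay at an internal start used by shorter annotated transcripts and not at the outermost start of the gene. Another Col16a1 site was intronic, 2877 bp from the nearest start, with folds of 11.0 and 11.8.

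Chains of type I and type III collagen had no promoter peak in either replicate, as had 43.9% of all protein-coding genes. Their promoters lie in CpG classes 3 and 4 of 10, counted from the lowest ratio. In these classes 9.34% and 15.0% of all genes had a promoter site. At Col1a1, a chain of type I collagen of bone, skin and vessel walls, a reproducible site lay downstream of the gene (chr11:94954807-94955985) with folds of 10.2 and 15.1. Col1a2, which encodes its partner chain, had peaks of 3.53 and 3.98 in replicate 1 and 5.91 and 3.94 in replicate 2, all under the minimum. Col3a1 had 1 peak in replicate 2, at 2.96, and none in replicate 1. Of the type V chains, which form a core with type I, Col5a1 had a promoter pair of 4.42 and 4.27 under the minimum, and Col5a2 had no peak.

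Type IV collagen, the network of basement membranes, is encoded by 3 pairs of genes that start head to head, and none of the 6 genes had a promoter site, beside 39.7% of all genes at the same CpG classes, or 2.38 of 6. The promoter shared by Col4a1 and Col4a2 had a peak of fold 5.30 (11 fragments) in replicate 1 and no overlapping peak in replicate 2. Inside Col4a2, an intronic site 99387 bp from the start (chr8:11411271-11412907) had folds of 13.7 (9.38 to 19.4) and 10.8 (7.52 to 15.2). Col4a4 had an intronic site of 7.51 and 9.53, and the site of its neighbour Col4a3 lay at the start of Mff. Col4a5 and Col4a6, the pair on chromosome X, had no peak in either replicate. Deposited peaks in these regions thus ranged from 10 and 7 at Col4a2 to 0 and 0 on chromosome X.

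Among the other collagens, Col9a1, a fibril-associated chain of cartilage, had 3 sites and none at a start. Folds in replicates 1 and 2 were 6.63 and 6.57 at the first (chr1:24211471-24212708), 8.84 and 8.54 at the second (chr1:24225605-24227776) and 9.28 and 12.2 at the third (chr1:24244106-24246554). A further pair of peaks between them reached 11.5 in replicate 2 and 5.30 in replicate 1, and so failed the minimum. Col9a2 also missed it, at 5.30 and 7.23, as did the promoter pair of Col20a1, at 4.42 and 7.56, and the site of Col9a3 lay at the start of Ogfr. Col28a1, a collagen of peripheral nerve, had a pair of intronic sites, at 7.51 and 10.5 and at 7.07 and 6.90. Col5a3 had a site in the gene body at 7.95 and 9.53, and Col14a1 an intronic site at 6.19 and 8.21. The type VI chains, grouped with Col7a1, Col26a1 and Col28a1, had a site at 2 of 9 genes (22.2%, beside 58.7% at the same lengths). These were Col28a1 and Col7a1, the latter at the start of Pfkfb4, and no type VI chain had a site. None of the 9 had a promoter site, where 1.58 genes would have one at the shares of their CpG classes. None of the 4 transmembrane collagens had a site away from the start of another protein-coding gene, beside 34.7% of all genes with such a site.

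Laminin promoters with a site were those of Lama1, Lama4 and Lamc1. Lamc1 encodes the gamma chain of most laminins, and its promoter site (chr1:153330744-153333916) had folds of 14.6 (10.1 to 20.4) in replicate 1 and 15.4 (11.4 to 20.5) in replicate 2. The summits of the replicates lay 3 bp apart, 142 bp from the start in an untranslated exon in replicate 1. Lamc1 also had the most peaks of the 87 genes over both replicates, 7 in replicate 1 and 14 in replicate 2. Of these peaks, 2 further pairs made intronic sites, with folds of 8.84 and 11.2 (chr1:153273194-153274347) and of 7.51 and 7.88 (chr1:153297302-153300401). Lama4 encodes the alpha chain of vessel basement membranes, and its promoter site (chr10:38964046-38966915) had folds of 11.5 (7.59 to 16.7) and 15.1 (11.1 to 20.1). It had 2 weaker intronic sites as well, at 6.19 and 8.54 and at 6.19 and 10.8. Lama1, the alpha chain of early embryonic and pial basement membranes, had folds of 7.95 (4.82 to 12.5) and 11.8 (8.34 to 16.3) at a site (chr17:67697303-67699281) whose replicate 1 summit was intronic, 1453 bp downstream of the start.

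The 3 beta chains had no promoter site, beside 23.0% of all genes at their CpG classes, or 0.69 of 3. Lamb1, the usual partner of Lamc1, had no peak in replicate 1 and 3 in replicate 2, with folds of 3.61 at the promoter and 4.60 and 7.88 inside the gene. Lamb2 and Lamb3 each had a site, and these lay at the starts of Usp19 and G0s2. Lamc3, a further gamma chain, had a pair of overlapping peaks at 5.74 and 5.26 at the start of Aif1l, under the minimum. Lama5 had a weak promoter pair, 5.30 and 3.61, and its site lay at the start of Adrm1. Lama2, the alpha chain of muscle and of brain vessels, and Lama3, that of epithelia, had no peak at all.

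**Figure D2:**
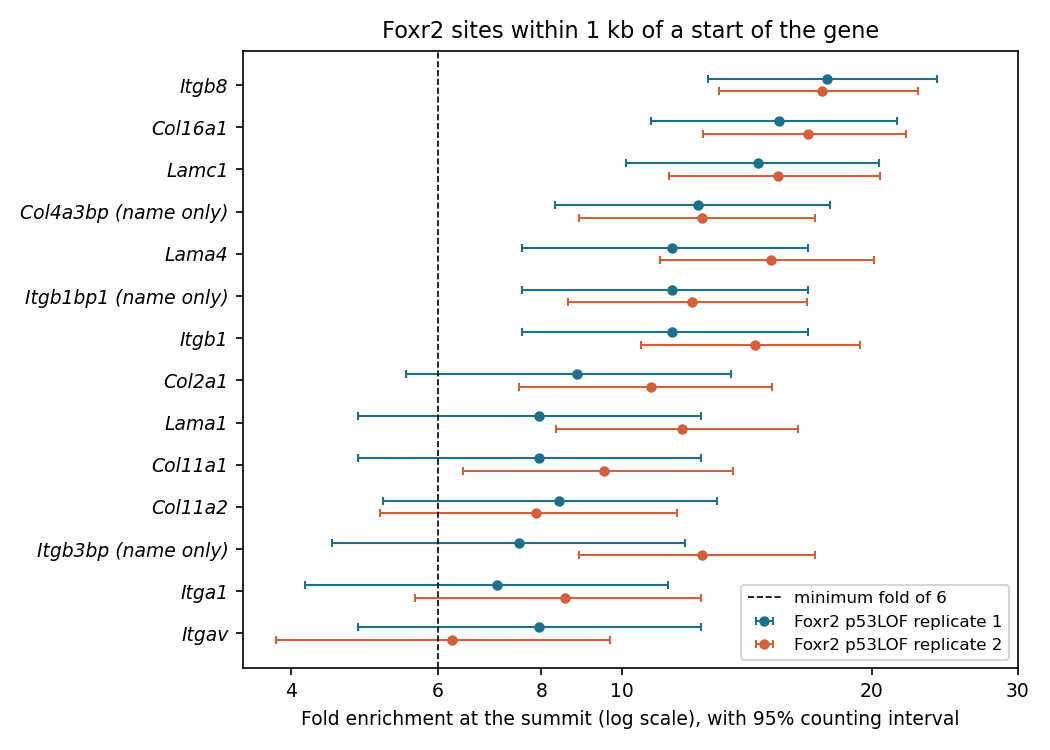
Points give the fold enrichment at the summit in Foxr2 p53LOF replicate 1 (blue) and replicate 2 (orange), on a log scale, for the 14 genes with a promoter site, with exact Poisson 95% intervals. The dashed line is the minimum fold of 6. The intervals of the replicates overlap at every gene shown, and Itgb8, Col16a1 and Lamc1 lie highest, with both folds between 14.6 and 17.7.

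Integrin promoters with a site were those of Itgb1, Itgb8, Itgav and Itga1. The highest folds at any promoter of the 87 genes were at Itgb8, whose chain pairs with that of Itgav and activates latent TGF-beta on neural and glial cells. Its site (chr12:119238026-119239905) had folds of 17.7 (12.7 to 24.0) and 17.4 (13.1 to 22.7), the lower of which was at or above those of 91.4% of all 11947 reproducible sites. Itgb1 encodes the beta chain that pairs with most matrix-binding alpha chains, and folds at its promoter (chr8:128684163-128688378) were 11.5 (7.59 to 16.7) and 14.5 (10.6 to 19.4). Itgav had a weaker promoter site (chr2:83723597-83726227) at 7.95 (4.82 to 12.5) and 6.24 (3.83 to 9.67). Itga1, the alpha chain of a collagen receptor, had a promoter site (chr13:115101532-115102451) at 7.07 (4.15 to 11.4) and 8.54 (5.64 to 12.5), which is also the start of the annotated readthrough gene Gm49395. Both members of the pairs Itgav with Itgb8 and Itga1 with Itgb1 thus had a promoter site. No other of the 27 integrin chains had one, so the other alpha chains that pair with Itgb1, such as Itga2, had none. The intervals of Itgav and Itgb8 did not overlap in either replicate.

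Of the 27 integrin chains, 4 had a promoter site (14.8%, beside 36.6% of all genes at the same CpG classes). A further 6 had an overlapping pair of promoter peaks that did not pass, which was not counted over all genes. Both replicates had a promoter peak at 11 (40.7%), beside 51.3% of all genes, and neither at 13 (48.1%), beside 43.9%. At Itga6, a laminin receptor chain of neural stem cells, the best overlapping pair was 3.98 and 4.93. Itga4 reached 5.30 and 6.57, Itga7 3.98 and 4.60, Itga8 3.53 and 4.27, Itgb3 4.86 and 4.27 and Itgb5 4.86 and 4.27. Inside Itgb5, 2 intronic sites passed, at 7.07 and 6.24 and at 6.19 and 6.57. Itga2b, the alpha chain of the platelet fibrinogen receptor, had 3 sites, with folds of 8.84 and 8.21 at a site touching a coding exon, 8.84 and 7.23 at a site in the gene body and 6.63 and 7.23 at the start of Fam171a2. Of the integrins of leukocytes, Itgad, Itgax, Itgb2 and Itgb2l had no peak, Itgam had 1 peak of 3.29 in replicate 2, and Itgal had 1 peak of 11.9 in replicate 1, at the start of Zfp768, with none in replicate 2. Itgae had an overlapping pair of 6.19 and 5.26 at the start of Haspin, and Itgb7 had 3 and 4 peaks, with its site at the starts of Csad and Zfp740.

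The strongest site of the 87 genes lay inside Itga2, the alpha chain of another collagen receptor with Itgb1. It spanned chr13:114837436-114840424, 2989 bp, with summits in an intron 2 bp apart between the replicates. The summit lay 92980 bp from the 5′ end and 6039 bp from the 3′ end of the gene, and the site touched 1 coding exon (chr13:114839496-114839585). The fold was 25.6 (95% interval 19.5 to 33.1, 57 fragments) in replicate 1 and 47.3 (39.9 to 55.7, 143 fragments) in replicate 2, with no peak in either control. Its lower fold was at or above those of 98.1% of all reproducible sites. It was also the only 1 of 56 distinct sites whose intervals did not overlap between the replicates. No other annotated gene started within 1 kb, and no CCGGAA or TTCCGG lay anywhere in the 2989 bp, of which 7.66% is masked as repeat. The printed window has a GC content of 43.3% and 3 CpG, beside 77.3% and 44 in the window of Lamc1. At the promoter of Itga2 itself, peaks of 5.30 in replicate 1 and 3.94 in replicate 2 did not overlap each other.

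The regions of the 87 genes held 56 distinct sites, of which 14 lay at the gene's own promoter, 19 at the start of another protein-coding gene, 15 in introns, 6 in the gene body touching an exon, 2 downstream and 0 upstream. Thus 58.9% of these sites lay within 1 kb of some coding start, beside 65.3% of all 11947 sites. With sites at the start of another protein-coding gene left out, 22 genes (25.3%) had a site, beside 34.7% of all genes. The strongest of the 19 was at the start of Galk1 beside Itgb4, the beta chain of the hemidesmosome, with folds of 16.3 and 24.0. Next came the starts of Csad and Zfp740 beside Itgb7, a chain of lymphocyte homing receptors, and of Rxrb and Slc39a7 beside Col11a2, each with folds of 15.5 and 21. The start of Phykpl beside Col23a1 had 15.0 and 16.1. Pelo, a gene nested inside Itga1, had 12.4 and 11.5, above the folds of the Itga1 promoter in both replicates but with overlapping intervals. The Itgb4 region held 2 weaker sites away from other coding starts. One, at 8.39 and 6.57, touched a coding exon, and the other, at 6.19 and 8.54, lay downstream of the gene, beyond the start of Galk1. A peak list does not tell which gene a site acts on.

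**Figure D3:**
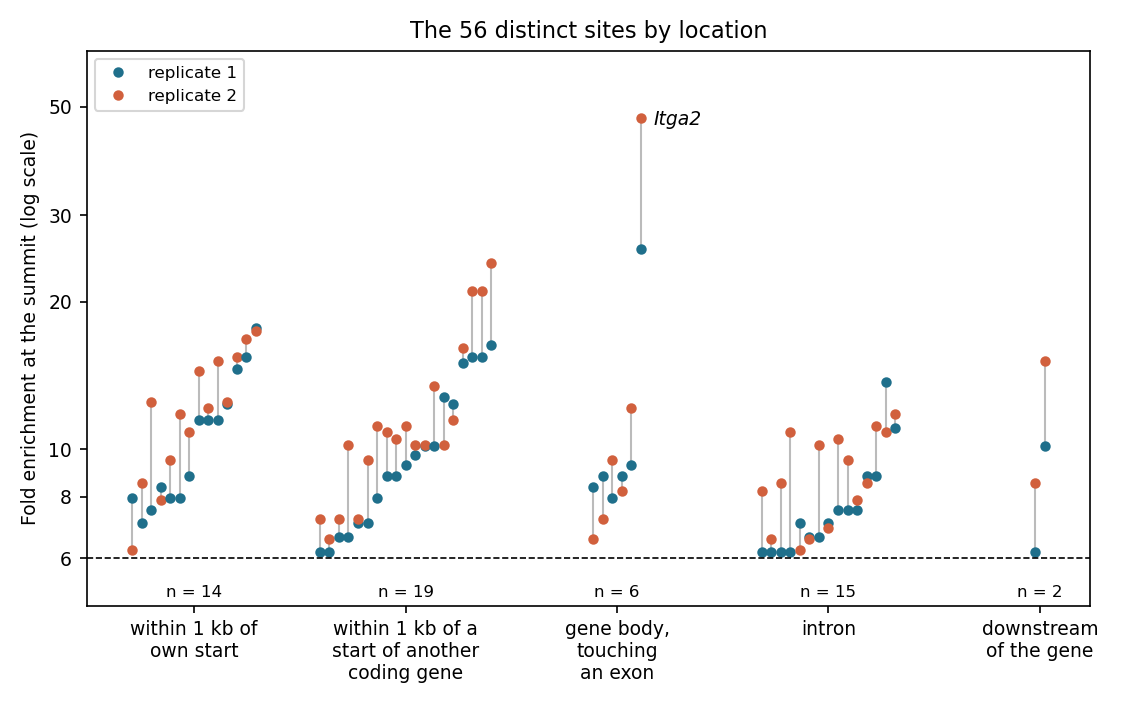
Each pair of points joined by a line is 1 of the 56 distinct sites, with its fold enrichment at the summit (log scale) in replicate 1 (blue) and replicate 2 (orange), grouped by location and ordered by the lower fold. The Itga2 site, at 25.6 and 47.3, stands above all others, of which none exceeds 24.0 in either replicate, and the dashed line marks the minimum of 6.

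Folds of the 2 replicates had overlapping intervals at 55 of the 56 sites. Replicate 2 was the higher at 43 of 56 sites (76.8%), beside 75.1% of all sites. The median lower fold was 8.08 over the 56 sites and 8.84 over all sites. Among promoter sites it was 8.84 for the 11 of collagen, laminin and integrin genes and 9.72 for all 7807. The summits of the replicates lay within 100 bp of each other at 22 sites (39.3%), beside 53% of all sites. Around the minimum, the lowest sites kept had 6.19 in replicate 1, which is 13 fragments. They were at Col14a1, Col7a1, Itgav, Itgb4, Itgb5 and, with 2 sites, Lama4. Just outside were peak pairs at Itgb8 (7.07 and 5.91), Lamc1 (5.74 and 7.88) and Itgb4 (6.19 and 5.59).

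Several of the longest genes were empty. Lama2 is 639723 bp long and had no peak in either replicate. Of the 140 protein-coding genes at least as long, 21 (15.0%) had none. Next in length without a peak were Itgbl1 (315648 bp), Col4a6 (308674 bp), Lama3 (249195 bp) and Col4a5 (213850 bp), and 10.4% to 12.5% of all genes at least as long as each had none. Of the 41 members of 100 kb or more, 14 (34.1%) had a site and 10 (24.4%) had no peak, beside 57.4% and 12.1% of the 2492 protein-coding genes of that length. Of the 46 shorter members, 23 (50.0%) had a site, beside 49.1% of all shorter genes. Promoter sites were fewer than over all genes at both lengths, at 6 of 41 long members (14.6%, beside 43.4%) and 8 of 46 shorter members (17.4%, beside 38.6%). In the upper 6 of 10 length classes, from class 5 to class 10, 3 of 5, 3 of 6, 6 of 9, 5 of 11, 5 of 16 and 14 of 37 members had a site in the region, beside 54.9%, 56.2%, 58.5%, 59.0%, 61.9% and 56.8% of all genes. Classes 5 and 7 thus lay above the share of all genes and the other 4 below it. The length of 100 kb was chosen after the values were seen, and no difference was tested. A long gene could also be full of weak peaks. Col25a1, a neuronal transmembrane collagen of 468377 bp, had 6 peaks in replicate 1 and 8 in replicate 2, none with a fold above 5.30, and no site.

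**Figure D4:**
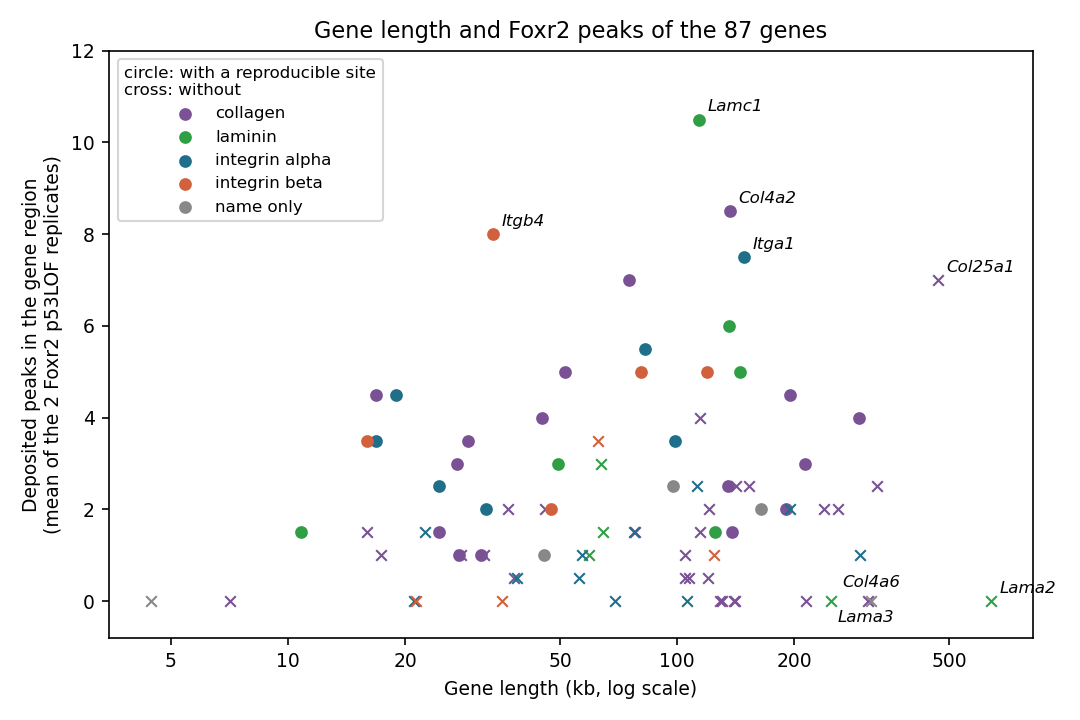
Each of the 87 genes is placed by its length (log scale) and by the mean number of deposited peaks in its region over the 2 Foxr2 p53LOF replicates, with colors for the families. Circles have a reproducible site and crosses have none. Lama2, Lama3 and Col4a6 lie at 0 although they are among the longest, and Lamc1, with 7 and 14 peaks, lies highest.

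Genes with and without a promoter site lay closer in CpG content than over the genome. The CpG ratio, observed over expected CpG within 500 bp of the 5′ end, had a median of 0.558 in the 11 collagen, laminin and integrin genes with a promoter site and 0.442 in the 71 without. Over all protein-coding genes these medians were 0.760 and 0.293. In the lowest 3 of 10 CpG classes, 0 of 3, 0 of 4 and 0 of 12 collagen, laminin and integrin genes had a promoter site, beside 2.64%, 5.65% and 9.34% of all genes, so few were to be found there. Class 4 had 2 of 15, near the 15.0% of all genes, and class 5 had 3 of 18, beside 28.4%. Counts in classes 6 to 10 were 3 of 10, 0 of 5, 1 of 8, 1 of 5 and 1 of 2, beside 48.3%, 60.3%, 69.1%, 74.8% and 78.2% of all genes. Promoters with a high ratio and no site included those of Itgb5 (0.896), Itga9 (0.875), Col23a1 (0.874), Itga3 (0.825) and Col5a1 (0.821). Lama4 (0.349) and Col11a2 (0.382) had a site at a lower ratio.

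**Figure D5:**
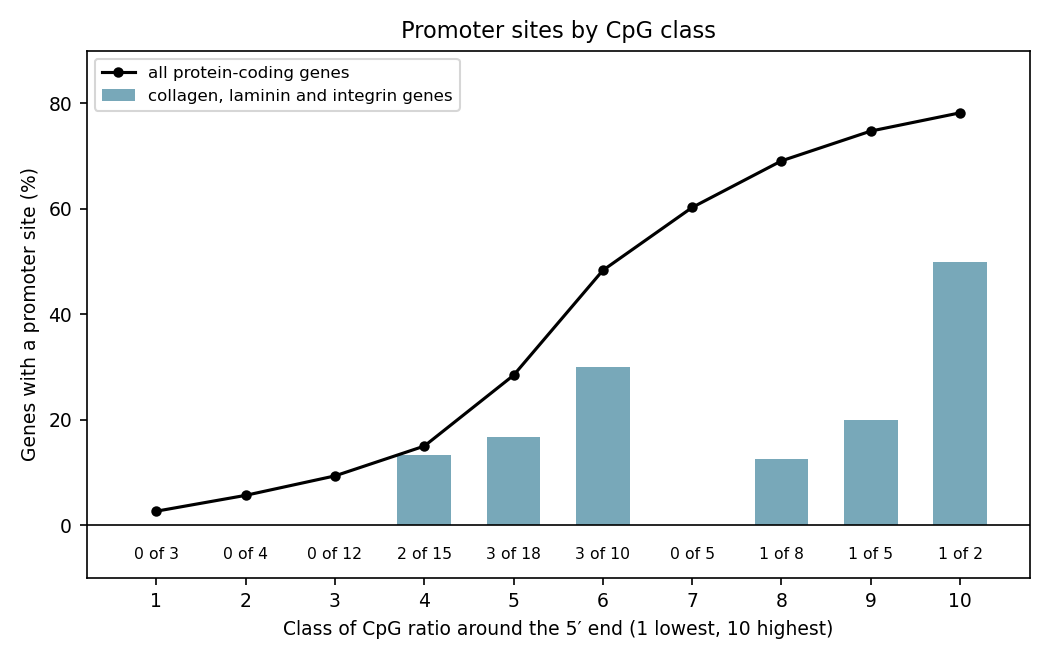
The line gives the percentage of all protein-coding genes with a promoter site in each of 10 equal classes of CpG ratio, and bars give it for the 82 collagen, laminin and integrin genes, with the numbers under each bar. Bars lie below the line in every class, from 0 of 12 in class 3 to 1 of 2 in class 10, and several rest on few genes.

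The ETS core was searched as CCGGAA and its reverse complement TTCCGG, the same sequence read on the other strand. In windows of 300 bp at the center of a site, 1 of 11 promoter sites of collagen, laminin and integrin genes held it (9.09%), that of Col11a1, beside 22.5% of all 7807 promoter sites. Around the mean of the summits it was again 1 of 11, now that of Itgb1, beside 22.4%. The summits of the replicates lay over 300 bp apart at 6 of the 11 sites, that of Itgb1 included, beside 29.2% of all promoter sites, and there such a window holds neither summit. Around the summit of replicate 1 alone the core was again in 1 of 11 windows, that of Itgb1, beside 20.5%, and around that of replicate 2 in 0 of 11, beside 19.9%. Over the whole site, of any length, 5 of 11 held it (45.5%), those of Lamc1, Itgb8, Itgb1, Col11a1 and Col16a1, beside 63.8% of all. At the 5′ ends themselves, 5 of 82 (6.10%) had the core, beside 18.6% of all protein-coding genes. With 11 windows, 1 more or fewer match moves the share by much of the difference, and a window without these letters says nothing about the factor.

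The 5 genes taken by symbol alone have other functions. Col4a3bp encodes the ceramide transfer protein, and its promoter site (chr13:96540840-96544728), also at the start of Polk, had folds of 12.4 and 12.5. Itgb1bp1, whose product binds the tail of the integrin beta chain of Itgb1, shared a site (chr12:21285310-21287389) of 11.5 and 12.2 with Cpsf3. Itgb3bp, a centromere protein gene, shared one (chr4:99828656-99830225) of 7.51 and 12.5 with Efcab7. Itgb1bp2 and Itgbl1 had no peak. A further site in the region of Itgb3bp (chr4:99928856-99930559), at the start of Pgm1, had 6.63 and 10.2. All 4 sites lay within 1 kb of the start of another protein-coding gene, so none of the 5 had a site away from the start of another protein-coding gene.

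Genes that work with these proteins, in lists named from their known functions, had sites at these counts. Of 21 genes that fold, modify, cut or cross-link collagen, 12 had a site in the region and 9 a promoter site. Control replicate 1 had a peak in the region of 1 of the 21 (P4ha2) and control replicate 2 in 2 (P4ha2 and Loxl3), while the other 3 lists had none. The strongest was at the promoter of P4hb, the beta subunit of collagen prolyl 4-hydroxylase and a general protein disulfide isomerase, with folds of 34 and 61.4. Plod3, a lysyl hydroxylase of collagen, had 19.0 and 21.7 at its promoter. Lox, Loxl1, Loxl2 and Loxl4, which cross-link collagen and elastin, had no site, and Loxl3 had one at 8.84 and 8.87. Of 20 genes of the adhesion complex inside the cell, 17 had a site and 11 a promoter site. Tln1, whose product talin activates integrins, had 18.6 and 22.3 at its promoter. Promoter folds were 13.7 and 15.1 at Ptk2, the focal adhesion kinase, and 11.9 and 13.8 at Vcl, which encodes vinculin. Of 12 other matrix proteins, 8 had a site and 5 a promoter site, with 12.4 and 17.4 at Agrn, a heparan sulfate proteoglycan, and 6.63 and 6.57 at Fn1, the fibronectin gene. Of 7 other matrix receptors, 5 had a site and 4 a promoter site, the strongest at Ddr2, a collagen-binding receptor tyrosine kinase, with 23.9 and 20.4. Region shares at the same gene lengths over all protein-coding genes were 56.1%, 57.6%, 56.5% and 55.3% for the 4 lists in this order, beside 57.1%, 85.0%, 66.7% and 71.4% measured. At the same CpG classes, promoter shares were 52.7%, 50.0%, 40.8% and 31.8%, beside 42.9%, 55.0%, 41.7% and 57.1% measured. These lists are small and were not tested against the 87 genes.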

How the data were processed

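Foxr2-V5 binding was measured by CUT&RUN in 2 Foxr2 p53LOF replicates and 2 V5 control replicates, with groups taken from the sample labels. Before deposit, the authors trimmed reads with Trimmomatic (0.39), aligned them to mm10 with BWA (0.7.17), removed duplicates with Picard (2.26.6) and called peaks library by library with MACS2 (2.2.7.1). The deposited fold is a ratio made by the authors, fragments at the summit plus 1 over background plus 1, and no input library is named in the methods. Deposited −log10 p and −log10 q values and the score made from q are the authors' MACS2 output within each library. A fold compares a summit with its own library, so folds were not tested between libraries. Read totals are not in a peak list, and folds above 6 need 13 fragments (replicate 1) or 18 (replicate 2) with Foxr2 p53LOF, and 16 or 9 in the controls.

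The filters of the methods were applied here (overlap of 10 bp with a control peak, −log10 q of 6, fold of 6, length of 10000 bp), without the later intersection with chromatin accessibility data, which were not used here. Each library's background was searched between 0.3 and 4 (step 0.0005), taking the value that makes the folds up to 30 whole numbers of fragments (within 0.02, 100% of folds), and exact Poisson 95% intervals follow from these fragments. They cover counting error only. Genes came from GENCODE M21 and sequence from GRCm38.p6, the build of mm10. The expected shares are the shares of all protein-coding genes in 10 equal classes of gene length, or of CpG ratio within 500 bp of the 5′ end, averaged over the members' classes. The steps were tested on simulated data, with Python (3.11.15), numpy (2.4.6), scipy (1.17.1) and pysam (0.24.0).

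Named genes are those with a promoter site, the 10 with the highest lower fold at a site, the 5 with most sites (7 with ties), the 5 longest without a peak and those around the fold minimum. Others were named after their values were seen. The values of 1 gene are not reported here. The members and lists were chosen with earlier results of these data known. Alternatives covered the fold minimum, control peaks, overlap, length limit, gene region, promoter window, starts, classes, the level of each chromosome and each replicate left out. The windows around the summits, the search of whole sites and the exclusion of sites at noncoding starts were added after seeing the data.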

Additional observations from a re-analysis of the deposited data

How the results depend on the processing

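The count of genes with a site in the region was 37. It moved to 18 with a minimum fold of 10, to 57 with no minimum on fold or q, to 60 with 50 kb on either side, and to 22 with sites at the start of another protein-coding gene left out (22 also where noncoding starts count). As shares of the 87 these are 20.7%, 65.5%, 69.0%, 25.3% and 25.3%, beside 27.8%, 62.3%, 64.7%, 34.7% and 28.9% of all protein-coding genes. The direction thus turned with no minimum and with 50 kb, against shares of all genes that were not set to gene length. The count of genes with a promoter site was 14 and moved to 7 with a minimum fold of 10 and to 25 with no minimum (8.05% and 28.7%), beside 19.7% and 50.5% of all genes. Leaving out each replicate in turn gave 37 to 44 genes with a site and 14 to 17 with a promoter site, and the difference between groups in genes with a peak stayed at 67 to 67. The other settings, 10 for the region and 12 for the promoter with those left-out replicates included, gave 26 to 44 and 11 to 17 genes. The lowest region count, 26 (29.9%) with the gene body alone, stood beside 42.2% of all genes. The highest, 44 (50.6%) without Foxr2 p53LOF replicate 1, stood beside 55.1%, and the 17 with a promoter site there (19.5%) beside 43.5%. The 11 (13.4%) were those without the genes matching by symbol alone, beside 39.2%. Dividing each fold by its chromosome's level took the promoter site of Itgav away and left 13. A window of 500 bp took away Col2a1 (13 left), the outermost start alone took away Col16a1 (13 left), and a window of 2 kb added Col28a1 (15). The expected region share was 57.7% with 20 length classes. The expected promoter share was 43.9% with classes of GC content in place of CpG ratio, so the gap to 16.1% was wider there. No paired analysis was possible because replicates of the same number come from different models with nothing else in common in the labels, and the counts of genes come from no fitted model. Depth limits the weakest sites: at a fold of 6.19 in replicate 1, 13 fragments lie at the summit, and the interval runs from 3.50 to 10.3. The count around ETS cores rests on 11 windows, and its single match changes gene between the windows used. Over whole sites the count moved from 1 to 5 of 11, as longer sequence was searched, and around the summit of replicate 2 it was 0.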
